A study of Mus musculus with 6 samples.

Results

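Platelets and megakaryocytes share a set of genes that most other cells use little, and 9 of them were followed in lungs of R/R and WT mice: Pf4, Ppbp, Itga2b, Gp1bb, Gp9, Gp6, Treml1, Tubb1 and Itgb3. They were chosen by name from knowledge of the lineage, with earlier results of these data known. All 9 were found among the 56262 genes of the count table. Gp1bb was listed at 0 in every lung, and the other 8 had enough counts to be tested. None of the 8 passed the test between R/R and WT lungs by edgeR, where 1.75% of all genes tested did, nor did any pass by DESeq2 or limma-voom, and with each of these tools 2 of the 8 had an unadjusted p under 0.05. By edgeR, 14.2% of all genes tested had such a p.

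Platelets are anucleate fragments shed by megakaryocytes, large polyploid cells of the bone marrow that also lodge in the vessels of the lung and release platelets there. A platelet holds RNA that it received from its megakaryocyte, and makes almost none of its own. It adheres to exposed von Willebrand factor and collagen through the GPIb-IX-V complex and glycoprotein VI, aggregates when integrin αIIbβ3 binds fibrinogen, and releases chemokines from its α-granules.

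The R/R mice carry K329R and K332R in RBM47 on both alleles, a CRISPR knock-in on the C57BL/6 background that removes 2 lysines at which ISG15 can be attached to this RNA-binding protein. Lungs came from 3 R/R mice and 3 wild-type (WT) littermates, untreated and 8 weeks of age, and whole-lung RNA was sequenced. The change is germline and present in all cells, so the lungs do not separate an effect in megakaryocytes from one in the lung. In whole tissue, fewer platelets or megakaryocytes and less RNA in each of them cannot be told apart, and no source used here states whether blood was rinsed from these lungs before RNA was taken.

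Values are CPM, the usual unit of counts relative to the library total on genes, scaled by edgeR's TMM factors and given in the order of replicates 1, 2 and 3. Each lung had between 16501092 and 18141067 counts, so that 1 count stood for 0.0551 to 0.0606 CPM. Among the members, Gp9, Gp6 and Treml1 rested on 10 to 47 counts in each lung. A difference is given as the log2 fold change of R/R over WT with its SE, and the adjusted p is that of edgeR's quasi-likelihood test with Benjamini-Hochberg adjustment over the 17120 genes tested. With 3 lungs against 3, an exact permutation test cannot go below 0.1, the value it gives when no lung of one genotype reaches the range of the other.

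The proximal promoters of 3 members are shown because Pf4 and Ppbp are chemokine neighbours that differed in how they varied between lungs, and Itga2b was the member with the lowest fold change. Sequences are from RefSeq (GRCm38.p6) and run 5′ to 3′ on the strand of the gene, from 250 bases before to 50 bases after its RefSeq start. Pf4 lies at chr5:90772185-90772484 on the plus strand, Ppbp at chr5:90768268-90768567 on the plus strand and Itga2b at chr11:102469834-102470133 on the minus strand. In the annotation used for counting, Itga2b starts at base 102470122. Most of its window, with both marked matches, thus lies inside the gene as counted. Capitals mark AGATAA, a core bound by GATA factors, and AGGAAG, a core bound by ETS factors, on either strand, so that CTTCCT is AGGAAG read on the other strand.
Pf4: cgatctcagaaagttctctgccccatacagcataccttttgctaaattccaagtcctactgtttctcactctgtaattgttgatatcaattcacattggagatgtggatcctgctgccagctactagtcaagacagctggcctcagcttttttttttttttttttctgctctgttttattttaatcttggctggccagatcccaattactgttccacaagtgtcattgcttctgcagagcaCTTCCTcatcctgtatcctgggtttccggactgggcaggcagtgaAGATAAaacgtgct
Ppbp: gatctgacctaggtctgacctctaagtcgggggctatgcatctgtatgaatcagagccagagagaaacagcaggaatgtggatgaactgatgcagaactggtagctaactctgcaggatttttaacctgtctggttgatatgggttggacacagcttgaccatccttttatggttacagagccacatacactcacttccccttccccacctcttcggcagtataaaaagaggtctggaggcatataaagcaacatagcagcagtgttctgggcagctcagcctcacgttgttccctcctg
Itga2b: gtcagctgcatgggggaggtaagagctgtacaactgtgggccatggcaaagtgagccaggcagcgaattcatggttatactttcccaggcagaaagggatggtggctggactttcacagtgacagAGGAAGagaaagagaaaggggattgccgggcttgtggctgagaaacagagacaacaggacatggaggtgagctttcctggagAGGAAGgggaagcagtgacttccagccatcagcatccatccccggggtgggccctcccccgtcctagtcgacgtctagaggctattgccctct
The Pf4 window held 1 match to each motif, the Ppbp window neither, and the Itga2b window 2 matches to AGGAAG. Among the 8 members whose promoter was in the table, AGATAA was found in 2 (Pf4 and Gp6) and in 11.2% of 32851 promoters of the same length. AGGAAG was found in 5 of 8 (Pf4, Gp1bb, Gp9, Itga2b and Tubb1) and in 35.4% of all promoters. A match is a string of letters and says nothing of binding, and the sequence of the Itgb3 promoter was not used here.

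The granule chemokines were followed first. Pf4 (ENSMUSG00000029373.7, chr5:90772435-90773383, plus strand) encodes platelet factor 4, which binds heparin. Pf4 was at 6.60, 7.23 and 6.77 CPM in R/R lungs and at 5.22, 6.29 and 5.85 CPM in WT lungs. The R/R lungs all lay above the WT lungs, as they did for 9.17% of genes tested. The means were 6.87 ± 0.326 and 5.79 ± 0.537 CPM (SD, n = 3 each), and the log2 fold change was 0.24 (SE 0.15, adjusted p = 0.518), with a 95% interval from -0.08 to 0.57. Ppbp (ENSMUSG00000029372.7, chr5:90768518-90770063, plus strand) encodes pro-platelet basic protein, the precursor of a neutrophil-attracting chemokine, and ends 2371 bases before Pf4. Ppbp was at 6.66, 8.49 and 12.9 CPM in R/R lungs and at 8.56, 8.55 and 6.56 CPM in WT lungs. Here the genotypes overlapped, and R/R replicate 3 stood above the other 5 lungs. Its log2 fold change was 0.24 (SE 0.22, adjusted p = 0.690), with a 95% interval from -0.24 to 0.72, and it was -0.06 without R/R replicate 3. The 2 neighbours thus had the same fitted difference with a different spread, since the highest R/R lung was 1.10 times the lowest for Pf4 and 1.94 times for Ppbp.

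Integrin αIIbβ3, the fibrinogen receptor, is built from the products of Itga2b and Itgb3. Itga2b (ENSMUSG00000034664.13, chr11:102453297-102470122, minus strand) encodes αIIb, an early and lasting mark of the megakaryocyte lineage. Its level was 7.83, 8.55 and 14.8 CPM in R/R lungs against 14.9, 15.8 and 12.2 CPM in WT lungs. R/R replicates 1 and 2 lay below all WT lungs, whereas R/R replicate 3 lay within the WT range. The means were 10.4 ± 3.83 and 14.3 ± 1.91 CPM (SD, n = 3 each). The log2 fold change was -0.47 (SE 0.21, adjusted p = 0.341 by edgeR), with p = 0.2 in an exact two-sided permutation test. Without R/R replicate 1 the log2 fold change was -0.30 (adjusted p = 0.618 by edgeR), and without R/R replicate 2 it was -0.35 (adjusted p = 0.651 by edgeR). Without R/R replicate 3 it was -0.81 and Itga2b passed the test (adjusted p = 0.0478 by edgeR), and it also passed when no filter on low counts was set (adjusted p = 0.0195 by edgeR). It did not pass under any other alternative run.

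Itgb3 (ENSMUSG00000020689.4, chr11:104608000-104670476, plus strand) encodes β3, which also pairs with αv in endothelium and other cells and so is the member least restricted to platelets. Itgb3 was at 43.2, 44.7 and 45.4 CPM in R/R lungs and at 53.5, 50.6 and 51.9 CPM in WT lungs. All R/R lungs lay below all WT lungs, as they did for 9.5% of genes tested. The means were 44.4 ± 1.14 and 52.0 ± 1.48 CPM (SD, n = 3 each). The log2 fold change was -0.23 (SE 0.06, adjusted p = 0.111 by edgeR), with p = 0.1 in an exact two-sided permutation test. It missed the threshold, with a 95% interval from -0.36 to -0.09. An unadjusted p under 0.05 was found for Itga2b and Itgb3 among the 8 members, and for 14.2% of all genes tested. Per length of transcript, the ratio of Itga2b to Itgb3 was 0.196, 0.207 and 0.352 in R/R lungs and 0.302, 0.339 and 0.254 in WT lungs, and it overlapped between genotypes (p = 0.4, exact two-sided permutation test, n = 3 each; 0.8 adjusted over 4 ratios).

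The receptors for von Willebrand factor and collagen rested on few counts. Gp9 (ENSMUSG00000030054.4, chr6:87778072-87779768, plus strand) encodes glycoprotein IX, a small subunit needed to bring the GPIb-IX-V complex to the surface. Gp9 was at 0.555, 0.897 and 2.77 CPM in R/R lungs, from 10, 15 and 47 counts, and at 1.15, 1.77 and 1.58 CPM in WT lungs. The R/R lungs held both the lowest 2 values and the highest, and the 95% Poisson intervals of 10 counts (4.80 to 18.4) and 47 counts (34.5 to 62.5) did not overlap. Its log2 fold change was -0.10 (SE 0.49, adjusted p = 0.958), with a 95% interval from -1.17 to 0.97. Gp6 (ENSMUSG00000078810.4, chr7:4363965-4397744, minus strand) encodes the collagen receptor glycoprotein VI, which signals through the Fc receptor γ chain. Gp6 was at 1.50, 1.02 and 2.47 CPM in R/R lungs and at 1.34, 1.38 and 1.46 CPM in WT lungs. The 3 WT lungs were close to each other and lay inside the R/R range. Its log2 fold change was 0.25 (SE 0.34, adjusted p = 0.807), with a 95% interval from -0.49 to 1.0, and it was -0.14 without R/R replicate 3.

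Gp1bb (ENSMUSG00000050761.4, chr16:18620317-18622403, minus strand) encodes the β subunit of GPIb and had 0 counts in all 6 lungs. A count of 0 allows up to 0.165 to 0.182 CPM, taking 3 counts as the limit, but for Gp1bb that limit does not bound its expression. Of the 2087 exon bases of Gp1bb, 1938 (92.9%) are shared with exons of Sept5 or Gm49601 on the same strand, and pairs that overlap more than one gene were not counted. Sept5, a septin gene, had 41 to 68 counts a lung and Gm49601 had 11 to 16. The level of Gp1bb was thus not measured, and other subunits of its complex are given below.

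Treml1 (ENSMUSG00000023993.7, chr17:48359916-48367176, plus strand) encodes TLT-1, an α-granule receptor that reaches the surface when platelets are activated. It was at 1.05, 0.957 and 2.0 CPM in R/R lungs and at 1.46, 1.66 and 1.46 CPM in WT lungs, again with R/R lungs on both sides of the WT range. Its log2 fold change was -0.19 (SE 0.33, adjusted p = 0.861), with a 95% interval from -0.92 to 0.54. Tubb1 (ENSMUSG00000016255.5, chr2:174450695-174457882, plus strand) encodes β1-tubulin, the isotype of the microtubule coil that keeps platelets discoid. Tubb1 was at 5.66, 8.25 and 12.4 CPM in R/R lungs and at 10.3, 8.50 and 10.5 CPM in WT lungs. R/R replicates 1 and 2 lay below the WT lungs and R/R replicate 3 above them. The log2 fold change was -0.16 (SE 0.23, adjusted p = 0.825), with a 95% interval from -0.66 to 0.34.

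**Figure D1:**
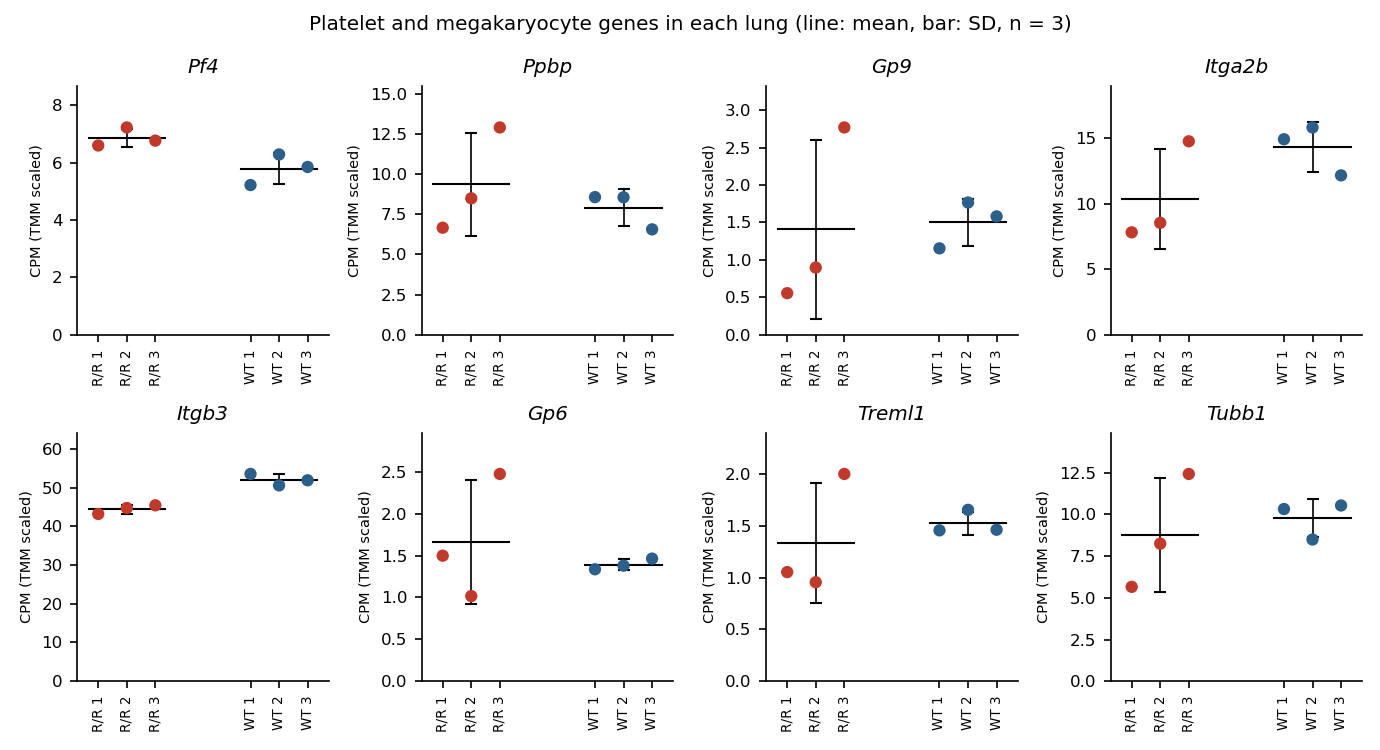
Level of each tested platelet and megakaryocyte gene in each lung (vertical axis, TMM-scaled CPM, one panel a gene with its own axis from 0), with R/R and WT lungs side by side, one point a lung and bars for the mean and SD of 3 lungs. R/R lungs are all above WT lungs for Pf4 and all below for Itgb3, whereas the genotypes overlap for the other 6 genes that were tested, and Gp1bb, at 0 in every lung, is not drawn.

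Of the 8 tested members, 3 had a log2 fold change above 0 and 5 below, with a median of -0.13. The median of all genes tested was 0.00, and 48.8% of them lay below 0. The genotypes did not overlap for 2 members, and for 18.7% of all genes tested. The intervals bound what these lungs allow. For Pf4, Ppbp, Itga2b, Itgb3, Treml1 and Tubb1 they lie within a fold change of 2 in either direction, whereas that of Gp6 just reaches a doubling and that of Gp9 extends past a halving.

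**Figure D2:**
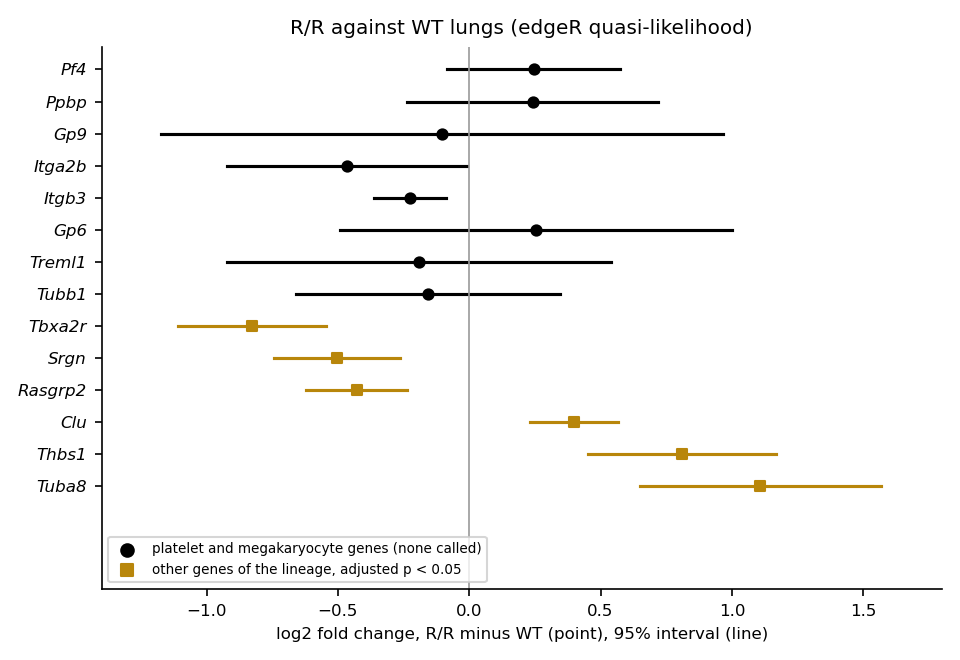
Log2 fold change of R/R over WT lungs (horizontal axis) with its 95% interval from edgeR's quasi-likelihood fit, for the 8 tested platelet and megakaryocyte genes (black circles) and the 6 other genes of the lineage that passed the test (gold squares). The black intervals include 0 for 6 genes, and those of Itga2b and Itgb3 lie below 0 without passing the adjusted threshold.

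Most tested members varied more between R/R lungs than between WT lungs, with Pf4 and Itgb3 as the exceptions. The SD of log2 CPM was larger in R/R lungs for 6 of 8 tested members (75%) and for 51.9% of all genes tested. Its median over the members was 0.53 in R/R and 0.15 in WT lungs, against 0.12 in both genotypes over all genes tested. The ratio of the highest to the lowest R/R lung was 1.10 for Pf4 and 1.05 for Itgb3, and from 1.89 for Itga2b to 4.99 for Gp9 in the other 6 members. In WT lungs this ratio ran from 1.06 to 1.53. Members of one lineage share their cells, so these are not independent observations, and no test was made of the spread.

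R/R replicate 3 was the highest R/R lung for 7 of 8 tested members (87.5%), the exception being Pf4, and for 33.9% of all genes tested. It was the highest of all 6 lungs for Ppbp, Gp9, Gp6, Treml1 and Tubb1, that is 62.5% of the members against 17.6% of all genes tested. As log2 CPM over the WT mean, the median of the members was -0.39, -0.34 and 0.37 in R/R replicates 1, 2 and 3, and -0.01, 0.12 and 0.01 in WT replicates 1, 2 and 3. This pattern was seen in the data and is given as a description. Red cell genes moved with it in part: the median over the 7 tested erythroid genes was -1.29, -0.67 and -0.24 in R/R lungs and -0.04, 0.24 and -0.22 in WT lungs. The summed level of the 12 erythroid genes was 1176, 1722 and 2221 CPM in R/R lungs and 2426 to 3222 CPM in WT lungs. In this sum, most of it from Hbb-bs and Hba-a1, R/R replicate 3 was the highest R/R lung but below every WT lung. By gene that held for Hbb-bs, Hba-a1 and Hba-a2. However, R/R replicate 3 was above WT replicate 3 for Alas2 (53.0 and 39.6 CPM), Hbb-bt (126 and 111 CPM), Slc4a1 (1.12 and 1.05 CPM) and Ermap (0.589 and 0.527 CPM). The part of blood content in the values of the platelet genes was not tested.

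**Figure D3:**
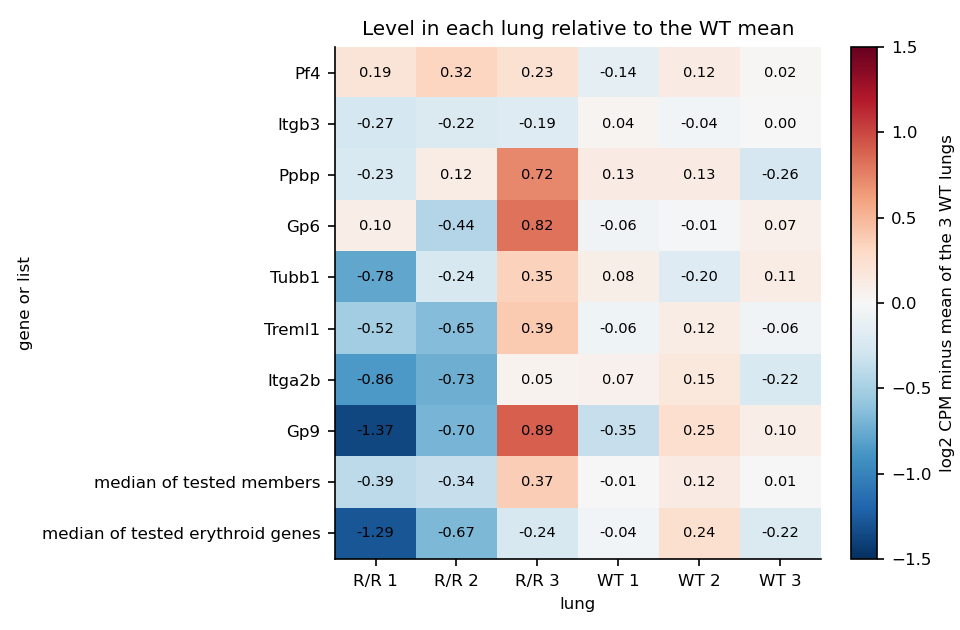
Log2 CPM of each tested platelet and megakaryocyte gene over its mean in WT lungs (colour and printed value), one row a gene and one column a lung, with the median of the members and the median of the tested erythroid genes. R/R replicate 3 is above 0 for every gene shown except Itgb3, the median of the members is -0.39 and -0.34 in R/R replicates 1 and 2 and 0.37 in R/R replicate 3, and the erythroid median is negative in all 3 R/R lungs.

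Per kilobase of exon, so that genes can be set side by side, WT lungs held most Itgb3 at 8.81 ± 0.251 CPM per kb (SD, n = 3). Pf4 followed at 8.03 ± 0.745, Ppbp at 7.29 ± 1.07 and Tubb1 at 6.96 ± 0.797 CPM per kb, and within these 4 genes the ranges of neighbours overlapped. Below them came Itga2b at 2.63 ± 0.350, Gp9 at 1.70 ± 0.356, Treml1 at 1.09 ± 0.0804 and Gp6 at 0.236 ± 0.0110 CPM per kb, with no overlap between neighbours. In R/R lungs Pf4 (9.53) and Ppbp (8.63) were above Itgb3 (7.53 CPM per kb) on average, and the lower part of the order was as in WT lungs, with overlap of Itga2b with Gp9 and of Gp9 with Treml1. The chemokine ratio Ppbp to Pf4 was 0.671, 0.781 and 1.27 in R/R lungs and 1.09, 0.905 and 0.746 in WT lungs (p = 1 before and after adjustment, exact two-sided permutation test, n = 3 each). Itga2b to Tubb1 and Gp9 to Gp1ba, the gene of the ligand-binding GPIb subunit, also overlapped between genotypes (p = 0.3 and 0.7, or 0.8 and 0.933 adjusted, exact two-sided permutation tests, n = 3 each).

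**Figure D4:**
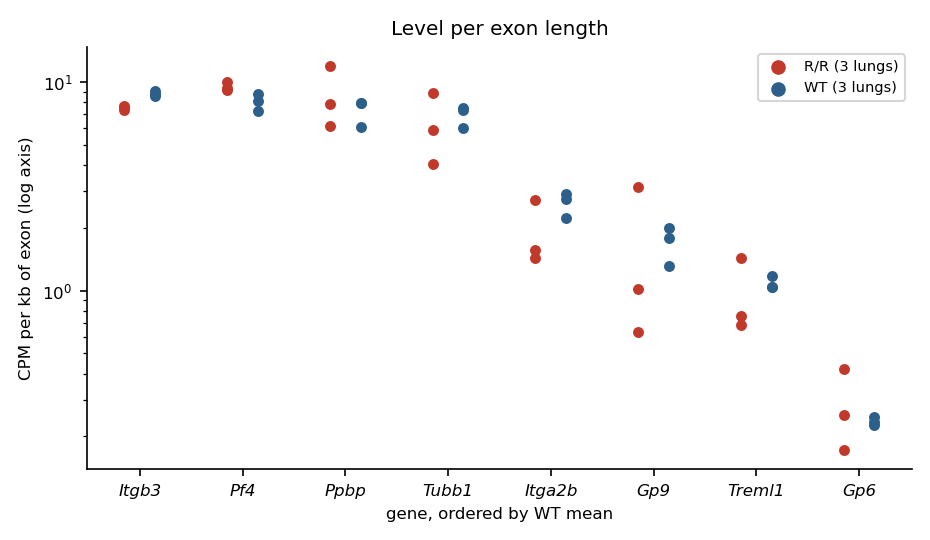
Level of the 8 detected platelet and megakaryocyte genes per kilobase of exon (log axis, TMM-scaled CPM per kb) in each lung, ordered by the WT mean, with R/R and WT lungs marked apart. Itgb3, Pf4, Ppbp and Tubb1 form an upper group with WT means of 6.96 to 8.81 CPM per kb, and Gp6 is lowest at 0.236.

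A further 69 genes of the lineage were taken by role, of which 66 were tested. Gata1 and Gfi1b, transcription factors of megakaryocyte and red cell precursors, had 3 to 16 counts a lung and were below the filter, as was the adrenergic receptor gene Adra2a. Of the 66, 3 rose in R/R lungs and 3 fell, or 6 in all, against 0.648% of all genes tested that rose and 1.1% that fell. The median log2 fold change was -0.05, with 24 genes above 0 and 42 below. Most of the 6 are also expressed by vascular, epithelial or immune cells of the lung.

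Among agonist receptors 1 of 9 tested genes passed. Tbxa2r, which encodes the thromboxane A2 receptor of platelets and smooth muscle, was at 15.8, 13.6 and 11.8 CPM in R/R lungs and at 23.7, 28.1 and 21.3 CPM in WT lungs. All R/R lungs were below all WT lungs, and Tbxa2r fell by 0.83 on the log2 scale (SE 0.13, adjusted p = 0.0115 by edgeR). Of the 9, 3 had a log2 fold change above 0 and 6 below. The ADP receptor genes P2ry1 and P2ry12, of those above 0, were chosen after their values were seen and did not pass the test. P2ry1 averaged 3.64 ± 0.169 CPM in R/R against 2.52 ± 0.357 CPM in WT (SD, n = 3 each), a log2 difference of 0.53 (adjusted p = 0.268 by edgeR), and P2ry12 at 2.36 ± 0.240 and 1.64 ± 0.334 CPM, a log2 difference of 0.52 (adjusted p = 0.399 by edgeR). In signaling and integrin activation 1 of 13 passed: Rasgrp2, which encodes the exchange factor CalDAG-GEFI that activates Rap1 ahead of integrin αIIbβ3, fell by 0.43 on the log2 scale (SE 0.09, adjusted p = 0.0371 by edgeR). Rasgrp2 was at 93.8, 92.0 and 106 CPM in R/R lungs and at 149, 126 and 118 CPM in WT lungs, with no overlap between genotypes.

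Granule cargo held 3 of the 6 genes that passed, out of 10 tested. Thbs1, the gene of thrombospondin-1, was at 218, 290 and 275 CPM in R/R lungs and at 104, 165 and 178 CPM in WT lungs, and it rose by 0.81 on the log2 scale (SE 0.16, adjusted p = 0.0341 by edgeR). Clu, the gene of the chaperone clusterin, was at 175, 160 and 168 CPM in R/R and at 115, 124 and 142 CPM in WT lungs, and rose by 0.40 (SE 0.08, adjusted p = 0.0314 by edgeR). Srgn, the gene of the granule proteoglycan serglycin that binds Pf4 protein in granules, was at 66.8, 83.5 and 61.7 CPM in R/R and at 107, 106 and 86.9 CPM in WT lungs, and fell by 0.50 (SE 0.11, adjusted p = 0.0444 by edgeR). Cargo genes thus passed in both directions, and Pf4 and Ppbp, the cargo among the members, did not pass.

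Of the cytoskeletal genes 1 of 7 passed. Tuba8, an α-tubulin gene, was at 14.7, 8.07 and 14.5 CPM in R/R and at 5.34, 5.80 and 6.15 CPM in WT lungs, and rose by 1.11 on the log2 scale (SE 0.21, adjusted p = 0.0297 by edgeR), while Tubb1 did not pass. By edgeR no gene passed among 9 adhesion receptors, 4 ITAM or ITIM receptors, 4 genes of granule biogenesis, 3 of eicosanoid synthesis and 7 tested transcription factors, of which 2, 0, 1, 0 and 2 had an unadjusted p under 0.05. Over all genes tested that share was 14.2%. Gp1ba was at 1.55, 2.21 and 2.95 CPM in R/R lungs and at 2.49, 2.43 and 2.52 CPM in WT lungs (log2 fold change -0.15, adjusted p = 0.863 by edgeR). Gp5, the remaining subunit of the complex, was at 2.11, 2.33 and 4.95 CPM in R/R and at 2.98, 2.87 and 2.28 CPM in WT lungs (log2 fold change 0.20, adjusted p = 0.840 by edgeR). Both of these, chosen after their values were seen, had R/R replicate 3 as the highest of the 6 lungs, which was so for only these 2 of the 9 adhesion receptor genes and for 14 of the 66 tested genes (21.2%, against 17.6% of all genes tested). Of the 6 calls, each was lost when at least 1 lung was left out, while the fold changes kept their direction. Tbxa2r and Thbs1 were left without R/R replicate 1 or WT replicate 1, Srgn and Tuba8 without R/R replicate 2, Tbxa2r alone without R/R replicate 3 or WT replicate 2, and all 6 without WT replicate 3. Where a gene was lost in this way, its adjusted p by edgeR lay between 0.0525 and 0.170. Over the left-out lungs the log2 fold change ran from -0.94 to -0.71 for Tbxa2r, from -0.50 to -0.33 for Rasgrp2, from -0.64 to -0.41 for Srgn, from 0.33 to 0.49 for Clu, from 0.61 to 0.95 for Thbs1 and from 0.97 to 1.34 for Tuba8.

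**Figure D5:**
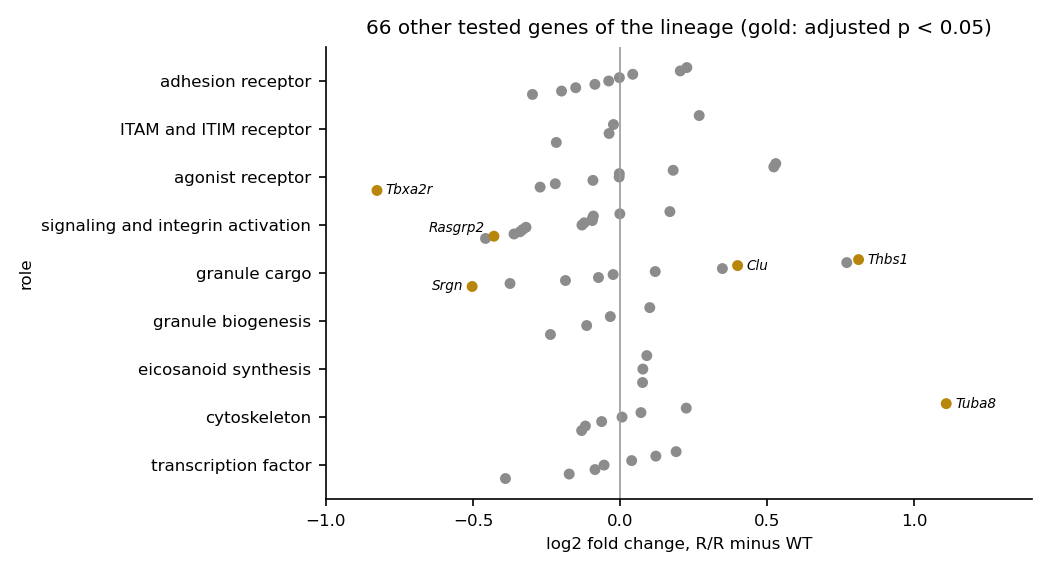
Log2 fold change of R/R over WT lungs (horizontal axis) for the 66 other tested genes of the lineage, grouped by role (rows), one point a gene, with gold for those that passed the test. The 6 gold genes fall on both sides of 0, from Tbxa2r at -0.83 to Tuba8 at 1.11, and most grey points lie within 0.50 of 0.

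The genes whose pattern over the 6 lungs was nearest to the mean pattern of the 8 tested members were taken from 15535 genes by root mean square difference in log2 CPM. Fbln2, the gene of the matrix protein fibulin-2, was nearest at 0.041, with 24.6, 27.0 and 46.2 CPM in R/R lungs and 35.9, 36.2 and 34.4 CPM in WT lungs. Ly6g6c (0.060), Gm15883 (0.067), Atat1 (0.070), the gene of an α-tubulin acetyltransferase, and Gm37422 (0.076) followed. The members themselves lay further from their mean, from 0.124 for Treml1 to 0.454 for Gp9. These likenesses are a description over 6 lungs, with no test.

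Defining genes of the other cells were present in all lungs. The erythroid gene Hbb-bs, a β-globin, was at 570, 812 and 1052 CPM in R/R lungs and at 1184, 1462 and 1103 CPM in WT lungs (log2 fold change -0.62, adjusted p = 0.115 by edgeR), and Alas2, of heme synthesis, had a log2 fold change of -0.67 (adjusted p = 0.300 by edgeR). Hbb-bs passed without R/R replicate 3 (log2 fold change -0.86, adjusted p = 0.0400 by edgeR), with all lungs when the replicate number was a block (replicate block, log2 fold change -0.66, adjusted p = 0.0345 by edgeR) and with no filter on low counts, and Alas2 passed with no filter. Of 7 tested erythroid genes 1 fell, the α-globin gene Hba-a1 (log2 fold change -0.78, adjusted p = 0.0478 by edgeR), and the other 6 did not pass, all 7 with log2 fold changes below 0. The neutrophil gene S100a8 was at 17.8, 9.68 and 9.54 CPM in R/R lungs and at 40.1, 9.49 and 35.5 CPM in WT lungs, and it passed without WT replicate 2 (adjusted p = 0.00758 by edgeR), under the replicate block (adjusted p = 0.0383 by edgeR) and with no filter on low counts. Of 7 tested neutrophil genes none passed in the fit described, although 6 had an unadjusted p under 0.05, against 14.2% of all genes tested. All 7 had log2 fold changes below 0, with a median of -0.84. The summed level was 111, 80.5 and 81.4 CPM in R/R lungs and 223, 81.7 and 214 CPM in WT lungs, so WT replicate 2 lay within the R/R range. No endothelial gene passed of 10, and 2 of them had an unadjusted p under 0.05, where 14.2% of all genes tested did. Log2 fold changes were above 0 for 3 of the 10, Erg (0.15), Tek (0.09) and Ramp2 (0.01), and below for 7. Cdh5, among those below 0, averaged 1433 ± 39.0 CPM for R/R and 1599 ± 108 for WT (SD, 3 lungs each). Summed over the list, levels ran from 6062 to 6369 CPM for R/R and from 6161 to 7113 for WT. Of 10 macrophage and monocyte genes 2 rose, Mrc1 (0.42 on the log2 scale) and Chil3 (0.68). Over this list 7 log2 fold changes were above 0 and 3 below, those of Ccr2 (-0.32), Ly6c2 (-0.13) and Csf1r (-0.05). Summed levels were 6064 to 6452 CPM in R/R and 4284 to 5861 CPM in WT lungs, most of each from Lyz2 alone. Lyz2 was at 5151 ± 133 and 4170 ± 694 CPM. It passed by DESeq2 (adjusted p = 0.0339) or without WT replicate 3 (adjusted p = 0.0177 by edgeR) but not otherwise under the filter used. Mast cell Cpa3 (5.42 ± 0.502 and 7.73 ± 0.513 CPM) and epithelial Sftpc (13238 ± 717 and 11115 ± 1076 CPM) did not pass by edgeR under the filter used, and Sftpc passed by DESeq2 (adjusted p = 0.0325) and by edgeR with no filter (adjusted p = 0.00353). Summed levels of the mast cell and basophil list were 378 to 436 CPM in R/R and 349 to 428 CPM in WT lungs. Kit alone gave 428.5, 380.6 and 370.3 CPM of this in R/R and 418.3, 368.4 and 339.3 CPM in WT lungs. Of the 8 genes on that list 3 were tested, 1 with a log2 fold change above 0 and 2 below. Summed levels of the epithelial list were 35318 to 38514 CPM in R/R and 28231 to 35954 CPM in WT lungs, most of each from Sftpc and Scgb1a1. By edgeR under the filter used, 0 of the 10 genes on that list passed. Their log2 fold changes were above 0 for 7 and below for 3, Scgb3a2 (-0.38), Foxj1 (-0.05) and Rtkn2 (-0.04). The 9 platelet and megakaryocyte genes together made up 73.0, 80.1 and 99.5 CPM in R/R lungs and 96.5, 94.5 and 91.5 CPM in WT lungs. Itgb3, the member least restricted to platelets, gave 43.2, 44.7 and 45.4 CPM of this in R/R and 53.5, 50.6 and 51.9 CPM in WT lungs. Gp1bb, which was not measured, added 0. The part of these other cells in the values of the platelet genes was not tested.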

How the data were processed

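RNA of whole lung from 3 R/R and 3 WT mice was sequenced as stranded pairs of 150 bases, and groups and replicate numbers came from the sample labels. The authors used HISAT2 2.1.0 for alignment to GRCm38. The table they deposited holds raw counts, 1 for each pair assigned to a gene by featureCounts 2.0.1 (per the file headers) over GENCODE M25 exons, without strand, multimapping pairs or pairs on several genes. Genes that share exons lose those pairs, as Gp1bb did. For one deposited column the unit was filed as estimated count, since the comment on top of the table could not be parsed by a check. Its values are whole and none was rounded. The labels name RNeasy columns for the RNA and the supplement Trizol.

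Symbols came from GENCODE M21 of the same assembly (55141 of 56262 identifiers matched). In R 4.3.3, genes were filtered by filterByExpr (minimum count 10, total 15), scaled by TMM and compared with edgeR 4.0.16 (glmQLFit, glmQLFTest), with a call at a Benjamini-Hochberg adjusted p of 0.05 over 17120 genes. The biological coefficient of variation was 8.62%. Mean log2 CPM used a prior count of 0.5, and count intervals cover counting error only. Libraries of one genotype differed beyond sampling noise. By chi-square per degree of freedom of the counts, WT replicate 3 differed from WT replicates 1 and 2 by 8.31 and 7.91. From the R/R libraries it differed by 7.20 to 8.21, whereas WT replicates 1 and 2 differed from them by 13.0 to 14.3. Alternatives were DESeq2 1.42.0, limma-voom (limma 3.58.1), library size or upper-quartile scaling, other filters, a replicate block and each library left out.

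Named genes are the 9 members, the further lineage genes that passed the test, the 5 nearest patterns and a defining gene of each other cell type. The members, lists and tests were chosen with earlier results of these data known. The procedure was tested on simulated data, with the same dispersion for every gene and fold changes larger than any fitted for the members. That test thus does not show whether differences of the size seen in the members would be found.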

Additional observations from a re-analysis of the deposited data

How the results depend on the processing

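No member passed the test, and this held under DESeq2, limma-voom, library size or upper-quartile scaling, a filter of 1 CPM in 3 libraries and the replicate block. With no filter beyond 1 count, 31428 genes were tested and 1 member (Itga2b), 13 further lineage genes and 1109 genes in all passed. DESeq2 called 541 genes in all (199 higher, 342 lower) and 8 further lineage genes. With one library left out, between 0 and 1 members passed (Itga2b, without R/R replicate 3), between 1 and 6 further lineage genes, and between 65 and 621 genes in all (65 without WT replicate 1, 621 without WT replicate 3). Over these left-out libraries the log2 fold change took both signs for Ppbp (-0.0616 to 0.44), Gp9 (-1.05 to 0.28), Gp6 (-0.14 to 0.51), Tubb1 (-0.49 to 0.079), Fbln2 (-0.46 to 0.0448), Ly6g6c (-0.47 to 0.0444), Gm15883 (-0.39 to 0.14) and Gm37422 (-0.30 to 0.16), and the cause was not tested. It kept its sign for Pf4 (0.17 to 0.31), Itga2b (-0.81 to -0.30), Itgb3 (-0.25 to -0.21) and Treml1, which without R/R replicate 2 was close to 0 (-0.60 to -0.0041). Tuba8 did not pass under limma-voom (adjusted p = 0.0542). Libraries of the same replicate number did not deviate together (correlations of -0.0139, -0.0036 and -0.0148), and the replicate block gave 0 members, 7 further lineage genes and 446 genes in all. Gp9, Gp6 and Treml1 rested on 10 to 47 counts a lung and had the widest intervals of the members, and the part of depth in this was not tested.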
